A study of Mus musculus with 32 samples.

Results

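Transcripts of 10 pluripotency genes were measured in mouse parathyroid cells that had grown from embryonic stem cells (ESC) inside another animal, to see whether any stem-cell transcript remained. The genes were chosen by name: Pou5f1, Nanog, Esrrb, Zfp42, Sall4, Utf1, Dppa3, Dppa5a, Tdgf1 and Lin28a. They are 10 of 35458 genes with at least 1 transcript in the tables, and for each the reads of all its Ensembl transcripts, 37 in total, were summed in each of 32 libraries. Of these libraries 24 were ESC-derived and 8 were control.

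Each library was made from 10 to 20 parathyroid cells that were picked by hand for red fluorescence from tdTomato, a reporter placed in Pth, the gene of parathyroid hormone. Full-length cDNA was made with a SMART-Seq HT kit. Mouse-host cells came from Gcm2-/- mice on a BDF1B6 background, which cannot form their own parathyroid glands, complemented with Pth-tdTomato mouse ESC. They make up 4 experiments at 9 weeks, of which experiments 1 to 3 are labelled female and experiment 4 male. Rat-host cells are mouse cells from the same kind of donor ESC in a neonatal Gcm2-/- Wistar rat of unknown sex. Grafted cells carry the mouse-host strain label and are labelled male at 12 weeks, and the labels used here do not describe the graft site. Control cells came from C57BL/6-Pthtm1(P2A-tdTomato)/+ mice, in experiment 1 labelled male at 8 weeks and in experiment 2 labelled female at 11 weeks. Each experiment has 4 libraries. All groups carry the reporter, and no library of undifferentiated ESC was analysed here, so the level of these genes in the donor cells is not known from these data. The libraries are called biological replicates, but no label ties them to animals. The main edgeR p-values therefore rest on the spread among mouse-host experiments and among control experiments, part of which may be technical. Rat-host and grafted cells, without a repeat experiment, add nothing to that spread. Sex and, in control cells, age also differ among experiments of the same kind.

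Pluripotent cells hold their state through a network of transcription factors in which Pou5f1 (Oct4), Nanog and Sox2 bind each other's regulatory regions and those of many other genes. Esrrb, Zfp42 (Rex1) and Dppa3 mark the naive state of mouse ESC, and the network is shut down when cells differentiate. Some of its members are used again in germ cells and in a few adult tissues, so a transcript of a single member is not by itself a mark of a stem cell. In pools of cells, fewer cells of a type and less RNA per cell cannot be told apart.

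The 4 libraries of control experiment 1 were the deepest, with 29471254 to 32264864 reads each, and the remaining 28 held 9470744 to 15098391. The parathyroid identity of the pools was visible in every library. Pth lay between 140500 and 260500 TPM (transcripts-per-million, a level per transcript length), Gcm2 between 188 and 617 TPM and the calcium-sensing receptor gene Casr between 56.2 and 265 TPM. The highest value of any of the 10 genes in any library was 4.84 TPM, for Sall4 in a control library. A count of 0 was read as an upper limit of 3 reads of the total. That limit is 0.199 to 0.317 RPM (reads-per-million of the library total) in an ESC-derived library and 0.0930 to 0.279 in a control library, and it covers counting error only, since the reads carry no molecular identifiers.

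The stretches before the start sites of Nanog and Zfp42 are shown here because both hold a match to the Pou5f1 binding motif, while Nanog had reads in most libraries and Zfp42 had none. They are the 250 bases before a RefSeq start site in build GRCm38.p6, written 5′ to 3′ in the direction of the gene. Capitals mark matches to the octamer core ATGCAAA, bound by Pou5f1, and to the core ACAATG, bound by Sox proteins, on either strand.
Nanog, chr6:122707239-122707488, plus strand: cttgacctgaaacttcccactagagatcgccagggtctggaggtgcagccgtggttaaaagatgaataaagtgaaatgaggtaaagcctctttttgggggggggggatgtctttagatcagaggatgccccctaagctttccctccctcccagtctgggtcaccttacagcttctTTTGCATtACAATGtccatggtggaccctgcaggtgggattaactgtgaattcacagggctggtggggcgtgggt
Zfp42, chr8:43307010-43307259, minus strand: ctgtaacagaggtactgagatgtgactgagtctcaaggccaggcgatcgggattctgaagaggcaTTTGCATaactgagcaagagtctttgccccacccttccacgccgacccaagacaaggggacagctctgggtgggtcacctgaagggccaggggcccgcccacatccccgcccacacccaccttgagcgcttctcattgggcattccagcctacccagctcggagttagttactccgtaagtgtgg
In Nanog the octamer core lies on the minus strand from base -75 and the Sox core on the plus strand from base -67, counted from the start site as 0, with 1 base between them. In Zfp42 the octamer core lies on the strand opposite to the printed one, from base -185, and no Sox core was found. RefSeq's table held 10 windows of 300 bases (250 before and 50 after a start) for 7 of the 10 genes. Both cores together were found in 2 of them, which are overlapping Nanog windows. Over all 32851 windows in the table, 4.63% held the octamer core, 12.6% the Sox core and 0.813% both. A match describes letters in the window and is not evidence of binding.

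Across all 32 libraries 4 of the 10 genes had no read at all. These were Zfp42, a zinc-finger factor of naive ESC, Utf1, a chromatin-bound factor of undifferentiated cells, Dppa3 (Stella), which guards DNA methylation in the early embryo, and Tdgf1 (Cripto), a co-receptor for Nodal. A count of 0 over 290088302 reads in ESC-derived libraries allows a level of up to 0.0103 RPM, and over 174064867 reads in control libraries up to 0.0172. Among 21743 protein-coding genes 26.1% had no read in any library. Another 3 genes had reads in at most 3 libraries (Pou5f1, Dppa5a and Lin28a), and 3 had more (Nanog, Esrrb and Sall4).

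**Figure D1:**
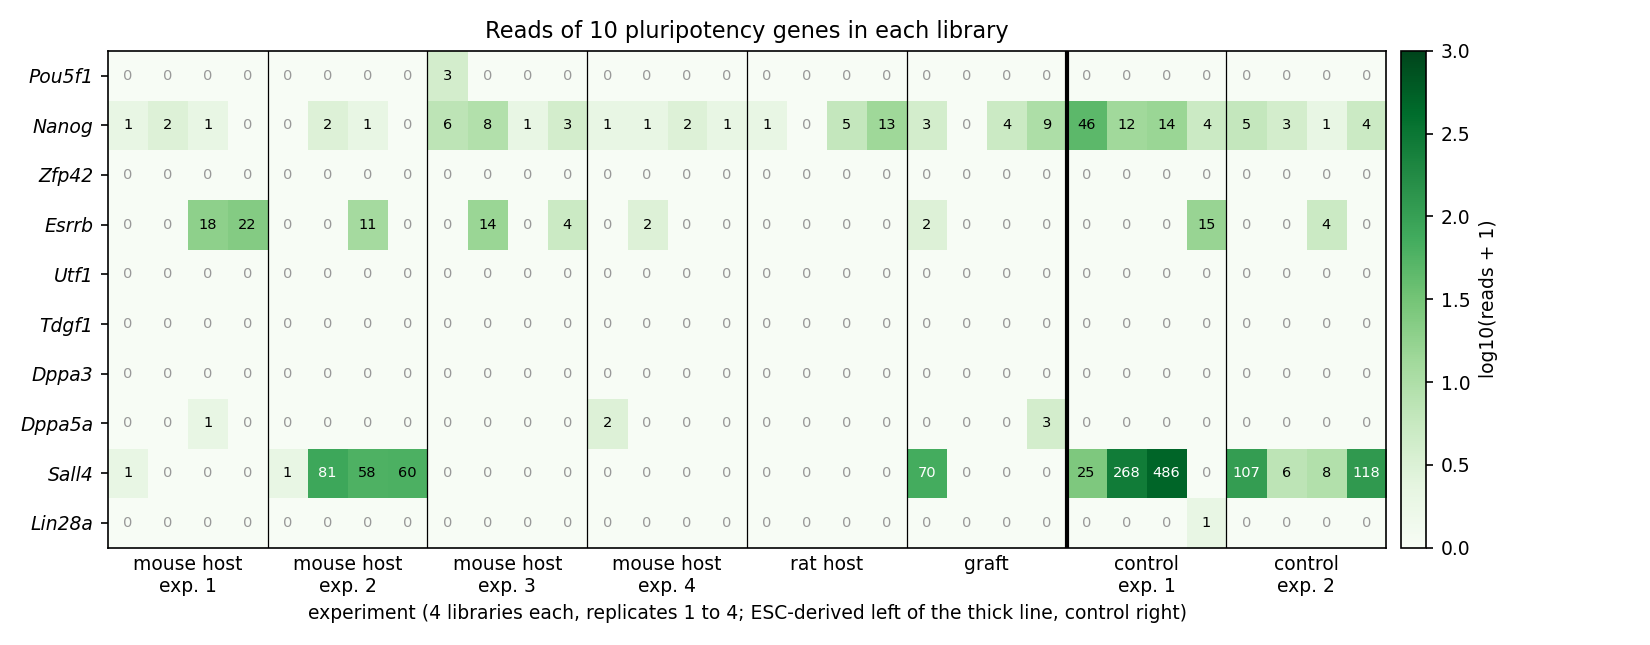
Reads of each of the 10 genes (rows) in each of the 32 libraries (columns, 4 per experiment), with the read number printed in each cell and the shade on a log10(reads + 1) scale. ESC-derived libraries lie left of the thick line and control libraries right of it; the highest cell is 486 reads of Sall4 in a control library, and the 4 rows of Zfp42, Utf1, Tdgf1 and Dppa3 are 0 throughout.

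Pou5f1 (ENSMUSG00000024406), the factor without which pluripotency is lost, was seen in a single ESC-derived library. Mouse-host experiment 3 replicate 1 held 3 reads, which is 0.203 TPM, the other 23 ESC-derived libraries held 0, and the 8 control libraries held 0. All 3 reads were assigned to the 1362-base transcript ENSMUST00000025271 on chromosome 17. With 3 reads over 24 libraries and 0 over 8, a difference between the groups was not detectable at this depth.

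Dppa5a (ENSMUSG00000060461, chromosome 9), which encodes a small RNA-binding protein of ESC and germ cells, had 6 reads in 3 ESC-derived libraries and 0 in the 8 control libraries. The reads were 1 in mouse-host experiment 1 replicate 3, 2 in mouse-host experiment 4 replicate 1 and 3 in graft replicate 4. The highest of these levels was 0.700 TPM, on a transcript of only 619 bases. No library reached more than 3 reads.

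Lin28a (ENSMUSG00000050966, chromosome 4), the RNA-binding protein that blocks maturation of let-7 microRNAs in ESC, had 0 reads in the 24 ESC-derived libraries and 1 read in control experiment 1 replicate 4, one of the 4 deepest libraries. With reads scaled to the shallowest library no Lin28a read remained in control.

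By presence alone, 2 of the 10 genes (Pou5f1 and Dppa5a) had reads in ESC-derived libraries and none in control, and 1 (Lin28a) had a read in control and none in ESC-derived libraries. The same held for 6.38% and 2.45% of 21743 protein-coding genes. The ESC-derived side has 24 libraries and the control side 8. The 2 genes rest on 9 reads, and at a minimum of 10 reads neither counted as present. Without mouse-host experiment 3 replicate 1 only Dppa5a was left.

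Nanog (ENSMUSG00000012396, chromosome 6), the homeobox factor that stabilises self-renewal, was the most widely detected of the 10 genes. ESC-derived libraries held 65 reads in 19 of 24 libraries, with a lowest value of 0, a median of 1 and a highest of 13 reads. Control libraries held 89 reads in 8 of 8, with a lowest value of 1, a median of 4.5 and a highest of 46 reads. At 3 or more reads, not scaled for depth, Nanog was present in 8 of 24 ESC-derived and 7 of 8 control libraries. The control libraries of experiment 1 were the deepest of all. The groups overlapped.

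By experiment, Nanog averaged 0.0989 ± 0.0808, 0.0590 ± 0.0760, 0.348 ± 0.247 and 0.114 ± 0.0491 CPM in mouse-host experiments 1 to 4 (SD, n = 4 libraries; CPM are counts-per-million scaled by TMM). It averaged 0.329 ± 0.398 CPM in the rat host and 0.349 ± 0.330 CPM in the graft, against 0.635 ± 0.639 CPM in control experiment 1 and 0.278 ± 0.162 CPM in control experiment 2. Control experiment 1 was highest and mouse-host experiment 2 lowest, and the order ran mouse-host experiments 2, 1 and 4, control experiment 2, the rat host, mouse-host experiment 3, the graft and control experiment 1. Neighbours differed by less than the larger of their SD, apart from mouse-host experiment 4 and control experiment 2, whose means were 0.114 and 0.278 CPM. Most of the reads of control experiment 1 came from replicate 1, with 46 reads, while replicates 2 to 4 had 12, 14 and 4. In the rat host the reads were 1, 0, 5 and 13, and in the graft 3, 0, 4 and 9.

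Per length, Nanog averaged 0.124 ± 0.150 TPM over ESC-derived (SD, n = 24) and 0.242 ± 0.234 TPM over control libraries (SD, n = 8). The deposited tables list 3 Nanog transcripts, and every read in all 27 libraries with a read was assigned to ENSMUST00000112581, the shortest at 1995 bases. Whether these reads come from Nanog mRNA or from another copy of the same sequence was not tested. Its annotated start in GENCODE release M21, 122707489 on chromosome 6, is the base that follows the Nanog stretch printed above. The pseudogenes Nanog-ps1 and Nanog-ps2 had 0 reads.

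Esrrb (ENSMUSG00000021255, chromosome 12), an orphan nuclear receptor that can stand in for Nanog in ESC, had reads in few libraries and few reads in each. ESC-derived libraries held 73 reads in 7 of 24, with a median of 0 and a highest value of 22 reads, and control libraries held 19 reads in 2 of 8, with a median of 0 and a highest value of 15 reads. Of the ESC-derived reads 71 were in mouse-host libraries: 18 and 22 in experiment 1 replicates 3 and 4, 11 in experiment 2 replicate 3, 14 and 4 in experiment 3 replicates 2 and 4, and 2 in experiment 4 replicate 2. The graft had 2 reads in replicate 1 and the rat host had 0. The control reads were 15 in experiment 1 replicate 4 and 4 in experiment 2 replicate 3. At least 2 of the 4 libraries were at 0 in every experiment.

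Experiment means of Esrrb were 0.854 ± 0.988, 0.210 ± 0.421, 0.337 ± 0.509 and 0.0447 ± 0.0893 CPM in mouse-host experiments 1 to 4 and 0.0398 ± 0.0796 CPM in the graft. They were 0.131 ± 0.262 and 0.0817 ± 0.163 CPM in control experiments 1 and 2 (SD, n = 4 libraries). Each SD exceeded its mean, and the 2 control means lay inside the range of the ESC-derived means. Libraries differed in the transcript that took the reads. Mouse-host experiment 1 used ENSMUST00000110204 (4196 bases), experiment 3 used ENSMUST00000110203 (2363 bases), and the 4 reads of control experiment 2 were on ENSMUST00000116402, which starts upstream of both.

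Sall4 (ENSMUSG00000027547, chromosome 2), a zinc-finger factor that partners Pou5f1 and Nanog and is required for growth of ESC and germ cells, had the most reads of the 10 genes, and most of them were in control cells. ESC-derived libraries held 271 reads in 6 of 24, with a median of 0 and a highest value of 81 reads, while control libraries held 1018 reads in 7 of 8, with a median of 66 and a highest value of 486 reads. In mouse-host experiment 2 the 4 libraries held 1, 81, 58 and 60 reads. Graft replicate 1 held 70 reads and mouse-host experiment 1 replicate 1 held 1, and the other 18 ESC-derived libraries, among them all 4 of the rat host, were at 0. Control experiment 1 held 25, 268, 486 and 0 reads and control experiment 2 held 107, 6, 8 and 118. Single libraries overlapped between the groups, since 4 ESC-derived libraries, at 58 to 81 reads, held more than the 4 lowest control libraries, at 0 to 25 reads.

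Scaled for depth, Sall4 averaged 0.951 ± 1.73 CPM over the 6 ESC-derived experiments and 5.73 ± 0.700 CPM over the 2 control experiments (SD over experiments). The means were 0.0270 ± 0.0541, 4.29 ± 2.94, 0 and 0 CPM in mouse-host experiments 1 to 4, 0 CPM in the rat host and 1.39 ± 2.79 CPM in the graft, against 6.23 ± 7.32 and 5.24 ± 5.41 CPM in control experiments 1 and 2 (SD, n = 4 libraries). Both control means lay above all 6 ESC-derived means, with a gap of 0.951 CPM between the lowest control and the highest ESC-derived mean. The separation was lost on leaving out any of 4 libraries: the gap was -0.451 CPM without mouse-host experiment 2 replicate 1, -1.19 without control experiment 1 replicate 3, and -0.619 and -0.600 without control experiment 2 replicates 1 and 4. Of 15698 genes tested, 2.72% had experiment means that did not overlap in this direction and 2.31% in the opposite one, and the means of Nanog and Esrrb overlapped. The 3 highest means, those of both control experiments and of mouse-host experiment 2, differed by less than the spread of their libraries.

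**Figure D2:**
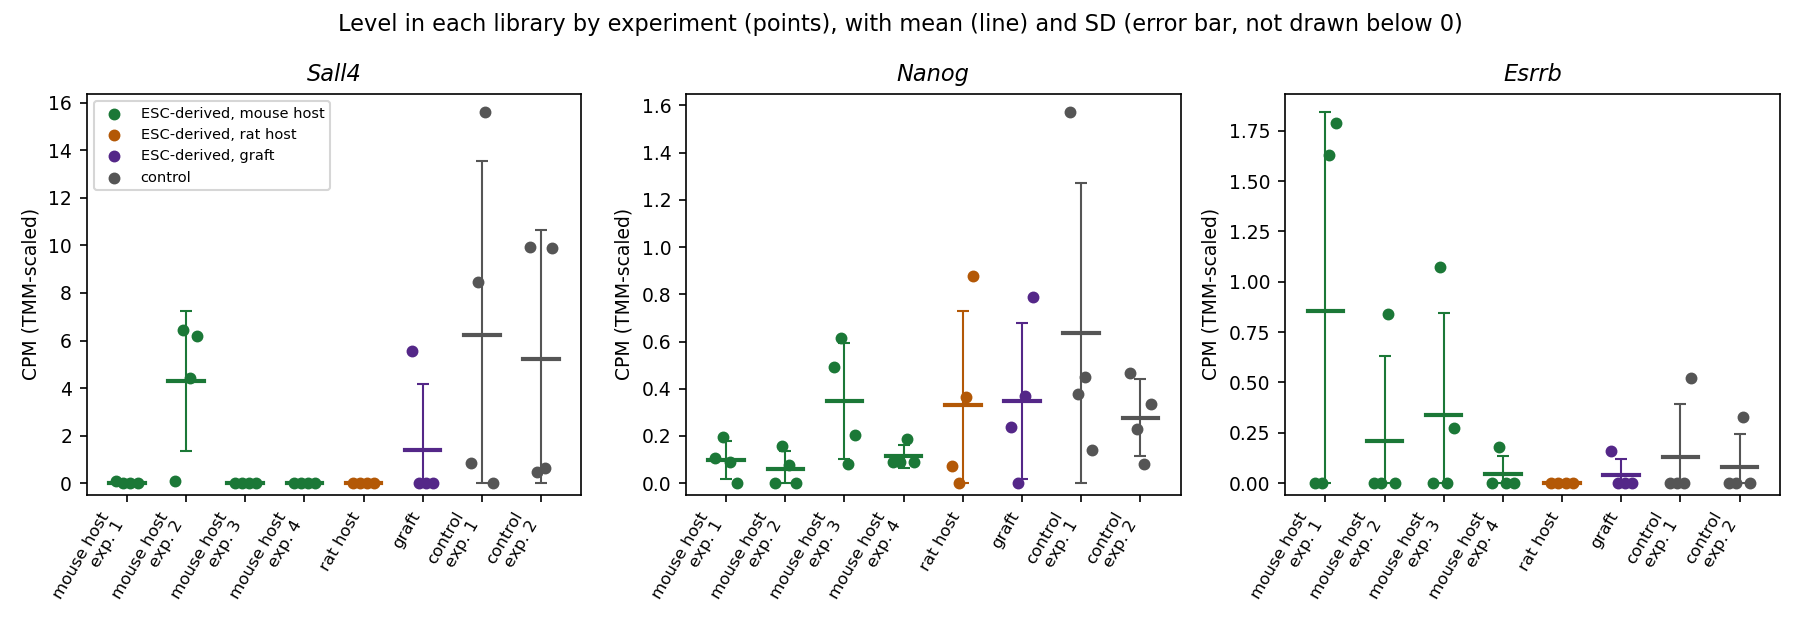
TMM-scaled CPM of Sall4, Nanog and Esrrb in each library (points), with the mean (horizontal line) and SD (error bar, not drawn below 0) of each experiment of 4 libraries; the vertical scales differ between panels. Sall4 reaches 6.45 CPM among ESC-derived libraries against 15.6 CPM among control libraries, Nanog reaches 0.877 against 1.57 CPM, and Esrrb is at 0 in at least 2 of the 4 libraries of every experiment.

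Nearly all ESC-derived Sall4 reads, 269 of 271, were assigned to the full-length transcript ENSMUST00000029061 (5073 bases), which took every read of the 4 libraries it appeared in. The other 2 reads were on ENSMUST00000075044. In control libraries 788 reads fell on it, 179 on the shorter coding transcript ENSMUST00000103074 (3741 bases) and 22.7 on ENSMUST00000075044 (2534 bases). A further 15 reads were on ENSMUST00000125138, a processed transcript of 423 bases that is not annotated as coding. TPM divides reads by transcript length, and control experiment 1 replicate 1, with 10 of its 25 reads on that transcript, reached 3.52 TPM, while replicate 3 reached 2.95 TPM with 486 reads. Over the groups Sall4 averaged 0.192 ± 0.437 TPM in ESC-derived (SD, n = 24) and 2.02 ± 1.76 TPM in control libraries (SD, n = 8).

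**Figure D3:**
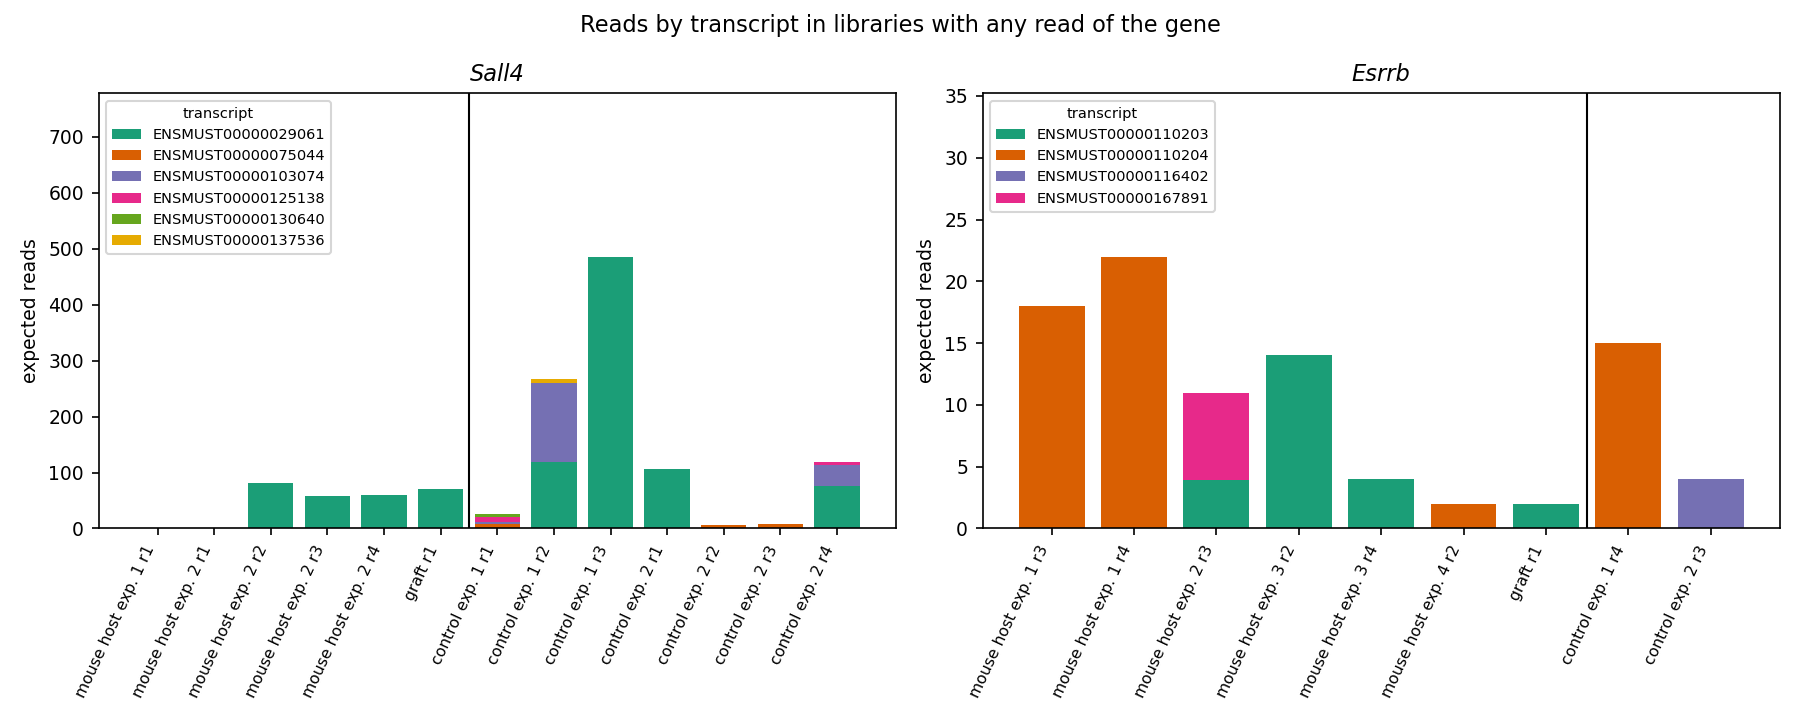
Expected reads of Sall4 (left) and Esrrb (right) by Ensembl transcript (colours) in each library with at least 1 read of the gene, ESC-derived libraries left of the vertical line and control libraries right of it. The 4 visible ESC-derived Sall4 bars have the colour of ENSMUST00000029061 and 2 libraries with 1 read each are too low to see, whereas 3 control bars are mixed; Esrrb changes transcript from library to library.

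The first question of the design was whether ESC-derived cells as a whole differed from control cells, with 6 experiments against 2. Of the 10 genes 3 passed the expression filter (Nanog, Esrrb and Sall4), 7 did not, and none of the 3 was called by edgeR's quasi-likelihood test, in which 1 of 15698 genes (0.00637%) was called. Sall4 had a log2 fold change of -3.85 (SE 2.08, Benjamini-Hochberg adjusted p = 0.813). Without mouse-host experiment 2 it was -8.21, without graft replicate 1 it was -5.39, and without the rat host it was -2.34. Nanog had -1.16 (SE 1.45, edgeR adjusted p = 0.984), and -0.57 without control experiment 1 replicate 1. Esrrb had 0.11 (edgeR adjusted p = 1). The values of Sall4 and Esrrb depend on the prior count, since the rat host, at 0 for both genes, has its own term in the log-scale average of ESC-derived cells. Esrrb was at 1.34 when ESC-derived experiments formed a single group, and turned to -0.60 without graft replicate 1 and to -0.80 without mouse-host experiment 1, while it was 1.45 without control experiment 1 replicate 4 and 0.77 without control experiment 2 replicate 3.

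By other tools the 3 genes were not called either. DESeq2 called 150 genes and gave Nanog and Esrrb adjusted p of 0.985 and 0.999, with no adjusted p for Sall4. Limma voom on single libraries, with the experiment as a random effect, called 214 genes and gave Sall4 its lowest adjusted p, 0.108. By edgeR 1016 genes had an unadjusted p below 0.05 in this comparison, and the p of Sall4 was 0.102. The fit has 4 residual degrees of freedom among experiments.

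Markers of other cell types were measured beside Sall4. The sum of 8 fibroblast markers was 22.5 to 2800 RPM (median 376) in ESC-derived and 212 to 3455 (median 504) in control libraries, and 8 of 8 markers had negative log2 fold changes (median -2.96, 0 called by edgeR, 1 with an unadjusted p below 0.05, and Postn called lower by limma voom and by DESeq2, which gave 6 of the 8 no adjusted p). The sum of 7 macrophage markers was 0 to 29.6 RPM (median 0.0391) in ESC-derived and 0 to 63.7 (median 0.0407) in control libraries, and 5 of 5 tested had negative log2 fold changes (median -4.20, 0 called by edgeR, DESeq2 or limma voom, 1 with an unadjusted p below 0.05). Of the 7, Adgre1 had 0 reads in all libraries, while 5 had reads in ESC-derived and 6 in control libraries. Lyz2 had the most, with 406 reads in 4 ESC-derived and 760 reads in 3 control libraries. The sum of 5 Schwann and neuron markers had a median of 0.388 RPM in ESC-derived and 3.89 RPM in control libraries. Of 3 tested, 2 had negative log2 fold changes (median -4.30), and 2 had an unadjusted edgeR p below 0.05. No tool called any of them. Negative log2 fold changes were also seen in 3 of 4 endothelial (median -2.04) and 2 of 2 B cell markers (median -3.81). The 1 tested thymic epithelial marker was negative (-1.08) and thyroid markers were split 1 to 1. The direction was opposite for 4 of 4 erythroid (median 3.00), 2 of 2 adipocyte (3.11) and 2 of 3 T cell markers (0.45). None of these lists held a gene called by edgeR, DESeq2 or limma voom. The part of other cells in the Sall4 values was not tested. Strain, age and the host differ between the ESC-derived and control groups and cannot be told apart from ESC origin.

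The genes whose levels over the 32 libraries ran most like Sall4 were the muscle myosin light chain gene Myl1 (Spearman's rho 0.694), Prr19 (0.690) and Arhgef6 (0.657), a guanine exchange factor gene, by log2(CPM + 1). These values describe 32 libraries made with the same kit that differ in depth and group, and the groups were not separated. Sall4 was at 0 in 18 ESC-derived libraries and 1 control library, so many of its ranks are tied. The genes are the highest of a search over the named genes that passed the filter, and no background of rho was computed. No likeness was computed for Nanog or Esrrb, which average under 1 CPM. Myl1 averaged 38.1 CPM in ESC-derived and 85.9 CPM in control libraries, and had reads in all of them.

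Mouse-host cells alone were then set against control cells, 4 experiments against 2. None of the 3 tested genes was called, and edgeR called 0 of 15698 genes (0%), with 691 genes at an unadjusted p below 0.05, 119 called by DESeq2 and 51 by limma voom. Sall4 had a log2 fold change of -2.43 (SE 2.24, edgeR adjusted p = 0.949), Nanog -1.54 (SE 1.57, adjusted p = 0.967) and Esrrb 1.88 (SE 1.95, adjusted p = 0.968). Among experiments labelled female only, mouse host 1 to 3 against control 2, the values were -1.81 for Sall4, -0.68 for Nanog and 2.56 for Esrrb, each with an edgeR adjusted p of 1.00. Without mouse-host experiment 2 the Sall4 value was -9.22, and that experiment held 200 of the 201 mouse-host reads of Sall4. Nanog was at -0.95 without control experiment 1 replicate 1, and Esrrb at 3.21 without control experiment 1 replicate 4 and at 2.54 without control experiment 2 replicate 3.

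Rat-host cells against mouse-host cells compare a neonatal rat with adult mice, and the host's species is confounded with its age. The rat-host libraries held reads of 1 of the 10 genes, Nanog, and the 16 mouse-host libraries held reads of 5, or of 3 to 4 per experiment of 4 libraries. Of the pairs of 1 of the 10 genes and a library 7.5% had a read in the rat host and 16.9% in the mouse host. Over protein-coding genes 55.8% of pairs of a gene and a library had a read in the rat host and 53.9% in the mouse host. By edgeR none of the 3 tested genes was called, and 101 of 15698 genes (0.643%) were. Against the limit of 3 reads over the rat-host libraries, Sall4 was at least 17.0-fold lower in the rat host (0 reads against 1.05 RPM in the mouse host) and Esrrb at least 6.02-fold lower (0 reads against 0.372 RPM). Without mouse-host experiment 2 replicate 2 the Sall4 limit was 10.9-fold, and without mouse-host experiment 2 the mouse host kept 1 read and gave no limit. Without mouse-host experiment 1 the Esrrb limit was 3.42-fold. Their edgeR adjusted p were 0.656 and 0.514, and 11 and 10 of the 16 mouse-host libraries were at 0 too. Nanog had a log2 fold change of 1.17 (SE 1.96, edgeR adjusted p = 0.898), and -0.043 without rat-host replicate 4.

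Grafted cells were set against ungrafted mouse-host cells, where the graft and age differ together. Sex also differs in part, since the grafted cells are labelled male and, of the mouse-host experiments, only experiment 4 is. The 4 graft libraries held reads of 4 of the 10 genes (Nanog, Esrrb, Dppa5a and Sall4). The 16 mouse-host libraries held reads of 5, or of 3 to 4 per experiment of 4 libraries. Of the pairs of 1 of the 10 genes and a library 15.0% had a read in the graft and 16.9% in the mouse host. Over protein-coding genes 51.1% of pairs of a gene and a library had a read in the graft and 53.9% in the mouse host. By edgeR none of the 3 tested genes was called, and 18 of 15698 genes (0.115%) were. Nanog had a log2 fold change of 1.09 (SE 1.97, edgeR adjusted p = 0.843), Esrrb -3.17 (SE 2.91, adjusted p = 0.671) and Sall4 0.45 (SE 2.93, adjusted p = 0.980). The Sall4 and Esrrb values rested on graft replicate 1, which held all graft reads of both genes, and were -8.88 and -7.45 without it. The Nanog value was 0.30 without graft replicate 4. The rat-host and graft comparisons share the mouse-host libraries.

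Counted by library, ESC-derived libraries held reads of a median of 1 of the 10 genes (0 to 3) and control libraries of 2 (2 to 3). No gene was present in rat-host replicate 2 or graft replicate 2. Of the pairs of a gene and a library 36 of 240 (15.0%) had a read in ESC-derived libraries and 18 of 80 (22.5%) in control libraries, against 53.7% and 55.4% over protein-coding genes. The summed level of the 10 genes was 0 to 6.68 RPM (median 0.387) in ESC-derived and 0.656 to 15.96 (median 5.48) in control libraries. The 10 genes had 418 reads in ESC-derived and 1127 in control libraries, of which Sall4 and Nanog held all but 20 in control. Mouse-host experiment 2, with a median of 5.84 RPM, lay near the control experiments, whose medians were 5.48 and 5.46, while mouse-host experiment 4 had 0.221.

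Around the 10 genes, the wider naive network was described by 27 other genes, of which 13 had reads in ESC-derived and 14 in control libraries, 11 had none anywhere and 12 passed the filter. By edgeR 0 of 12 were called between ESC-derived and control cells, and 1 had an unadjusted p below 0.05. The median log2 fold change was 0.04, against -0.04 over all genes tested. The smallest p belonged to Dnmt3l, a cofactor of DNA methylation, and Ooep, both with reads in 1 control library only (30 and 35 reads). Next came Tfcp2l1, a naive-state factor that is also used in epithelia, at 6.78 ± 2.53 CPM in ESC-derived and 4.02 ± 1.23 CPM in control cells (log2 fold change 0.71, SE 0.53), and Tet1, an enzyme that oxidises methylated DNA, at 11.3 ± 6.82 CPM in ESC-derived and 5.42 ± 0.985 CPM in control cells (0.97, SE 0.73). These SD are over experiments. DESeq2 called 1 of the 12 higher, Tbx3, whose 69 ESC-derived reads were in 2 libraries, 68 of them in 1. Limma voom called 0. DESeq2 also called Tbx3 higher in mouse-host against control cells and lower in graft against mouse-host cells. In those comparisons edgeR and limma voom called none of the list.

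In mouse-host against control cells the smallest p of the same list belonged to Fbxo15, long used as a reporter gene of ESC, with 176 reads in 4 mouse-host libraries and 0 in control libraries (edgeR unadjusted p = 0.0290, adjusted p = 0.892). Among the relatives of the 10 genes it belonged to Lin28b, which blocks let-7 as Lin28a does, with 98 reads in 3 mouse-host libraries and 0 in control libraries (unadjusted p = 0.0395, adjusted p = 0.892). Lin28b had a further 227 reads in 2 rat-host libraries, at up to 7.17 TPM, and 0 in the graft. Neither gene was called by edgeR, DESeq2 or limma voom in any of the 4 comparisons. Sox2, named after its values were seen, had 0 reads in all 32 libraries.

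Genes of primed and formative pluripotency had 7 of 12 members at 0 in all libraries and 4 tested. Between ESC-derived and control cells 0 of 4 were called by edgeR, DESeq2 or limma voom, and 0 had an unadjusted p below 0.05 by edgeR. The DNA methyltransferase gene Dnmt3a had a log2 fold change of 0.29 (SE 0.29). Lefty1, an inhibitor of Nodal, was at 6.50 ± 4.53 CPM in ESC-derived and 4.52 ± 0.483 CPM in control cells, each SD being over experiments. In rat-host against mouse-host cells Dnmt3a had 62.5 CPM in the rat host and 20.7 CPM in the mouse host, with an edgeR adjusted p of 0.0996, and was called higher by DESeq2 and by limma voom. In graft against mouse-host cells Dnmt3b was called lower by DESeq2 and not by edgeR or limma voom. Nodal had 45 reads in 2 mouse-host libraries and 0 elsewhere.

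Of 10 germ cell genes 5 were at 0 in all libraries. The 3 tested, Dnd1, Nanos3 and Dazl, were not called by edgeR, DESeq2 or limma voom in any comparison, and 0 had an unadjusted p below 0.05 between ESC-derived and control cells. Nanos3 was the most widespread, with 62 reads in 17 of 24 ESC-derived and 62 in 6 of 8 control libraries, at up to 7.07 TPM in ESC-derived and 7.68 TPM in control libraries. Dnd1 had 68 reads in 1 rat-host library, at 5.50 TPM, and 15 reads in 1 control library, at 1.24 TPM. Of 7 genes of the 2-cell-like state, 5 had no read, and Usp17la and Zscan4f had 2 and 1 reads in ESC-derived and 4 and 0 in control libraries.

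Relatives and partners of the 10 genes were also counted. Of 14 family relatives 8 were tested and 0 called by edgeR, DESeq2 or limma voom between ESC-derived and control cells (median log2 fold change 0.07, 0 with an unadjusted p below 0.05). Among them Pou2f1 (Oct1), a ubiquitous octamer-binding factor, had 15.7 ± 5.23 CPM in ESC-derived and 8.90 ± 4.82 CPM in control cells, and the nuclear receptor gene Esrra had 11.9 ± 2.97 CPM in ESC-derived and 9.27 ± 1.66 CPM in control cells. Of 16 chromatin and cofactor partners all 16 were tested and 0 called by the same 3 tools (median 0.01, 2 with an unadjusted p below 0.05). Hdac1, a histone deacetylase, stood at 237 ± 24.8 CPM in ESC-derived and 194 ± 0.789 CPM in control cells, and Dis3l2, a nuclease of let-7 precursors, at 45.8 ± 13.0 CPM in ESC-derived and 29.7 ± 5.46 CPM in control cells, each SD being over experiments. In graft against mouse-host cells DESeq2 called the relative Sall2 and the partner Jarid2 lower, and edgeR and limma voom called neither.

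**Figure D4:**
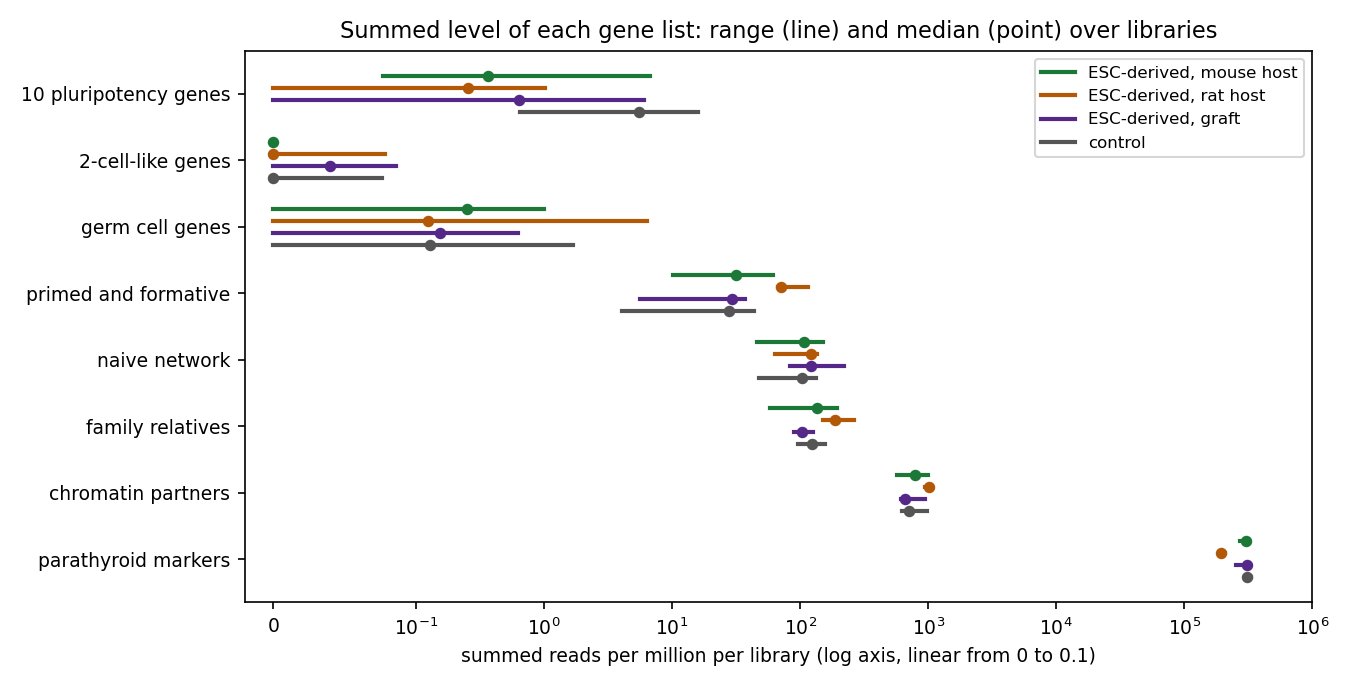
Summed RPM (reads-per-million) of each gene list in a library, as range (line) and median (point) over the libraries of the mouse host, rat host, graft and control, on a log axis that is linear between 0 and 0.1. The 10 pluripotency genes range from 0 to 6.68 in ESC-derived and from 0.656 to 15.96 in control libraries, and the parathyroid markers lie at the lower right.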

How the data were processed

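The authors quantified transcripts with Salmon, with GRCm39 as the named build, per the submitters' processing notes. No source used here gives a version of Salmon or names the transcript set. Each deposited table holds an expected count and a TPM per transcript and library, per the file headers. Of 116747 transcripts 115685 matched GENCODE release M21 identifiers, which supplied gene names; the other 1062 held 0.493% of reads and were left out. Summing expected counts over transcripts gave 35458 genes, whose sums were then rounded. Salmon divides reads shared between transcripts, so the transcript of a low count is uncertain. Promoter windows are from RefSeq (GRCm38.p6).

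Counts of the 4 libraries of an experiment were summed, and the 8 sums were fitted in a single edgeR 4.0.16 model with a term per arm (R 4.3.3, Python 3.11.15; quasi-likelihood test, TMM, default filter, 4 residual degrees of freedom, Benjamini-Hochberg over 15698 genes, called below 0.05). With 1 experiment each, the rat host and the graft take their spread from the other arms. ESC-derived is the log-scale average of the mouse-host, rat-host and graft terms, weighted by their numbers of experiments (4, 1 and 1). Its log2 fold change is therefore not the log ratio of the mean CPM. Each edgeR SE was worked back as the size of the log2 fold change divided by the square root of F, the test statistic. It is rough where counts are near 0. Alternatives used DESeq2 1.42.0, limma 3.58.1, log2(TPM + 1), other filters, and left-out libraries and experiments. None of 48 within-experiment library pairs agreed within sampling noise (lowest chi-square per degree of freedom 41.0). Replicate numbers did not pair libraries.

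The 10 genes and all lists were chosen with earlier results of these data known. All 10 are named; of each other list up to 4, by smallest p or, untested, most reads; the 3 most similar genes are given for members that average at least 1 CPM. Of 8 listed 2-cell-like genes, Dux was unmatched. One further list of cell type markers is not reported here.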

Additional observations from a re-analysis of the deposited data

Results flagged for a closer look

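A library was marked where, within an experiment of 4, its gap to the nearest other library, as a share of the whole range, exceeded Dixon's 95% critical value. Of 25 pairs of a gene and an experiment with any read, 13 were marked. The rate of about 1 in 20 groups marked by chance holds for normally spread values and not for counts near 0. In 12 of the 13 the other 3 libraries were at 0, so the mark records a read in a single library.

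For Esrrb these were mouse-host experiment 2 replicate 3 at 0.841 CPM, mouse-host experiment 4 replicate 2 at 0.179 CPM, graft replicate 1 at 0.159 CPM, and in control cells replicate 4 of experiment 1 at 0.524 CPM and replicate 3 of experiment 2 at 0.327 CPM. For Dppa5a they were mouse-host experiment 1 replicate 3 at 0.0904 CPM, mouse-host experiment 4 replicate 1 at 0.183 CPM and graft replicate 4 at 0.263 CPM. Pou5f1 in mouse-host experiment 3 replicate 1 stood at 0.246 CPM. Sall4 stood at 5.57 CPM in graft replicate 1 and at 0.108 CPM in mouse-host experiment 1 replicate 1. Lin28a in control experiment 1 replicate 4 stood at 0.0350 CPM. Nanog in mouse-host experiment 4 replicate 3, at 0.188 CPM, was the marked library whose neighbours also had reads.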

How the results depend on the processing

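No member passed the threshold in any of 568 alternative values of its 12 log2 fold changes; the lowest adjusted p was 0.108 (Sall4, ESC-derived against control, limma voom), and 4 DESeq2 values had no adjusted p. Of these values 18 changed sign, all where a library or experiment was left out. Over these settings Esrrb, ESC-derived against control, ran from -0.80 to 1.45 with 16 negative values, Nanog in the rat host from -0.043 (without replicate 4) to 1.93, and Sall4 in the graft from -8.88 (without replicate 1) to 7.24 (without mouse-host experiment 2).

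Counts of called genes over the whole table depended on the tool. The 4 counts below compare, in order, ESC-derived with control, mouse host with control, rat with mouse host, and graft with mouse host. By edgeR they were 1, 0, 101 and 18 genes called. DESeq2 called 150, 119, 893 and 1019, and limma voom 214, 51, 983 and 390. Single libraries taken as independent gave 33, 14, 776 and 477, and the same with the replicate block 32, 4, 820 and 420. Limma-trend on log2(TPM + 1) gave 0, 0, 647 and 233, dropping the filter gave 173 in the third and 53 in the fourth, and protein-coding transcripts gave 0 in the first and 31 in the fourth. ESC-derived as a single group gave 0 in the first, and total count scaling 0 in the first and 185 in the third. Leaving out a library or experiment gave 0 to 2, 0 to 0, 12 to 127 and 0 to 77. The causes were not tested. The replicate number marks no shared animal in the labels: over 112 same-numbered pairs the correlation was -0.12 to 0.0786, and 1 of 32 libraries was nearest to its own number.

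The median number of members present was 1 in ESC-derived and 2 in control libraries, at every left-out library too, and 0 and 1 at a minimum of 10 reads. Members present in ESC-derived libraries alone were 2, 1 to 2 with a library left out and 0 at 10 reads; those in control alone were 1, and 0 at 3 reads, at 10 reads and with depth scaled.

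A count of 0 in an ESC-derived library allows a level of up to 0.199 to 0.317 RPM. The values of the rat-host limits and of the gap between Sall4 experiment means with libraries left out were added after the data were seen.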
